A study of Mus musculus with 3 samples.

Results

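The genes described here are the 35 nuclear-encoded subunit genes of respiratory complex I whose symbols begin with Nduf and that were listed by name, out of 32285 genes counted. All 35 were found once by symbol in the hippocampal matrices. They comprise 6 core subunits of the matrix arm (Ndufv1, Ndufv2, Ndufs1, Ndufs3, Ndufs7 and Ndufs8), 9 accessory subunits of the matrix arm, 9 of the proximal membrane arm, 10 of the distal membrane arm, and Ndufa4, which was long counted with complex I and was later assigned to complex IV. Ndufab1 and Ndufb1-ps were not on the list and are given only beside it. The study compared single-nucleus RNA profiles of mouse hippocampus in 3 libraries: untreated controls, mice given doxorubicin (an anthracycline used in chemotherapy that poisons topoisomerase II), and mice given doxorubicin together with ACY-1083 (an inhibitor of the cytoplasmic deacetylase HDAC6). Each library came from nuclei of both hippocampi pooled from 4 mice, frozen and lysed with Triton X-100, and the labels give no strain, sex, age, dose or time. The series title frames the question as whether HDAC6 inhibition reverses the cognitive impairment that follows doxorubicin.

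Complex I, the NADH:ubiquinone oxidoreductase, is the largest enzyme of the mitochondrial respiratory chain and the entry point for electrons from NADH. Its matrix arm holds the flavin and the iron-sulfur clusters that carry electrons to ubiquinone, and its membrane arm pumps protons, with the pumping subunits encoded by the mitochondrial genome and most of the rest by nuclear genes. Neurons depend on it heavily, and loss of single subunits such as Ndufs4 causes an encephalopathy of the Leigh type in mice. The messenger RNAs of these genes are translated outside the nucleus, so counts in isolated nuclei hold newly made RNA together with any cytoplasmic RNA that stayed with the nuclei or was free in the droplets.

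With 1 library in each group there was no replicate and no test between groups, so the values below describe 3 libraries. Intervals are 95% and cover counting error only. In these pools, fewer cells of a type and less RNA in each cell cannot be told apart in a whole-library value. A level is given in CPM, the share of a gene in all UMIs (unique molecular identifiers, which count captured molecules) of the same nuclei on the usual CPM scale. After filtering, 10455 control, 11647 doxorubicin and 11846 doxorubicin plus ACY-1083 nuclei remained, with medians of 1472, 1471 and 3849.5 UMIs per nucleus. The third library stood apart in this depth and, per the file headers, in software: Cell Ranger 4.0.0 made the first 2 matrices and Cell Ranger 5.0.0 the third, so treatment and processing cannot be told apart in any comparison with it. Pairs of libraries shared 29 to 46 cell barcodes. The tissue label was checked against marker genes: clusters led by Prox1 and Plk5 (dentate gyrus granule neurons) were present in each library, as were clusters with CA1, CA2/CA3, glial and choroid plexus markers. Class names stand for likeness to such markers, and 11 classes with enough nuclei in every library were compared.

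To show what the regulatory sequence of these genes holds, the RefSeq promoter windows (GRCm38.p6, 250 bases before to 50 after the gene start) were searched. Of the 35 genes, 32 had a window. The NRF1 motif (GCGCA, then any base, then GCGC, on either strand) was in 7 of 32 (21.9%), against 7.17% of 17492 protein-coding promoters. The YY1 motif AAGATGGC, searched like the other 2 on both strands, was in 7 of 32 (21.9%), against 3.57%. NRF1 and YY1 are transcription factors known to act on genes of the respiratory chain. The ETS motif CCGGAAG, bound by the GABP complex among others, was in 4 of 32 (12.5%) against 12.9%, and the SP1 motif GGGCGG in 14 of 32 (43.8%) against 49.2%. The 4 motifs do not contain one another. The stretches below are 30 bases on the strand of the gene, and the capitals mark the letters matching the NRF1 motif or its reverse complement nearest the gene start.
Ndufb4 (chr16:37654371-37654400, minus strand): cctcatatccGCGCAGGCGCagatgtgcgc
Ndufa5 (chr6:24527697-24527726, minus strand): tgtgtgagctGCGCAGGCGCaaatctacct
Ndufs5 (chr4:123718265-123718294, minus strand): gctgcttgctGCGCAGGCGCagacccgctg
Ndufs6 (chr13:73328479-73328508, minus strand): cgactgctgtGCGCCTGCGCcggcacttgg
Ndufa11 (chr17:56717692-56717721, plus strand): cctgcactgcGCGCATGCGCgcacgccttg
Ndufa8 (chr2:36049349-36049378, minus strand): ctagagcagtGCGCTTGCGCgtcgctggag
Ndufa6 (chr15:82354249-82354278, minus strand): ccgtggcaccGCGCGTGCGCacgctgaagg

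In 6 of these 7 genes the NRF1 match shown lies before the RefSeq gene start, and Ndufb4 has 3 matches in its window. The gene coordinates given below are from GENCODE vM21, which places some starts elsewhere. By these, only the matches of Ndufs5 and Ndufa11 lie before the start, and the others lie inside the gene. The YY1 matches differ in placement: each of the 7 lies after the start, on the strand of the gene. The first base of each is at position 23 to 39, counted with the RefSeq start as position 1. These positions depend on the annotation. The GENCODE starts of Ndufs4 (114388258) and Ndufs7 (80249121) lie much farther from their matches. In the stretches below the capitals mark the YY1 letters, which contain an ATG.
Ndufa3 (chr7:3617384-3617413, plus strand): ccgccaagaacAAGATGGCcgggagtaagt
Ndufa9 (chr6:126849097-126849126, minus strand): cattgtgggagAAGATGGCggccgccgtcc
Ndufc1 (chr3:51408915-51408944, minus strand): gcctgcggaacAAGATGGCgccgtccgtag
Ndufs4 (chr13:114388045-114388074, minus strand): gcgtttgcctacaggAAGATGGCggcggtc
Ndufs6 (chr13:73328433-73328462, minus strand): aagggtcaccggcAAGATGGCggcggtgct
Ndufs7 (chr10:80249462-80249491, plus strand): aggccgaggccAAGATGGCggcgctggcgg
Ndufb8 (chr19:44555393-44555422, minus strand): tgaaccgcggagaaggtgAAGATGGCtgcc

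A match is a string of letters and not a bound site. The doxorubicin to control ratios described next ranged from 1.17 to 1.56 (median 1.32) among the 7 genes with the NRF1 letters and from 0.967 to 1.57 (median 1.28) among the 25 without them. For YY1 the ranges were 1.08 to 1.43 (median 1.30) and 0.967 to 1.57 (median 1.28). Both pairs of ranges overlap over most of their length.

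Doxorubicin against control. Summed over the 35 genes, the level was 2181 CPM (2160 to 2203, 39606 UMIs) in the control library and 2820 CPM (2797 to 2843, 57140 UMIs) in the doxorubicin library, a ratio of 1.29 (1.28 to 1.31). The ratio was above 1 for 34 of 35 genes, where 35.4% of all 10220 genes with a mean of at least 10 CPM had one. It was at least 25% higher for 23 of 35 (2.92% of all genes) and at least 20% lower for 0 of 35 (2.12%). The median log2 ratio was 0.36 for the 35 genes and -0.05 for all genes. All 35 passed the 10 CPM filter, so no gene is missing from these counts. The counting interval lay above 1 for 32 of 35 genes (10.2% of all genes) and below 1 for 0 of 35 (23.9%).

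**Figure D1:**
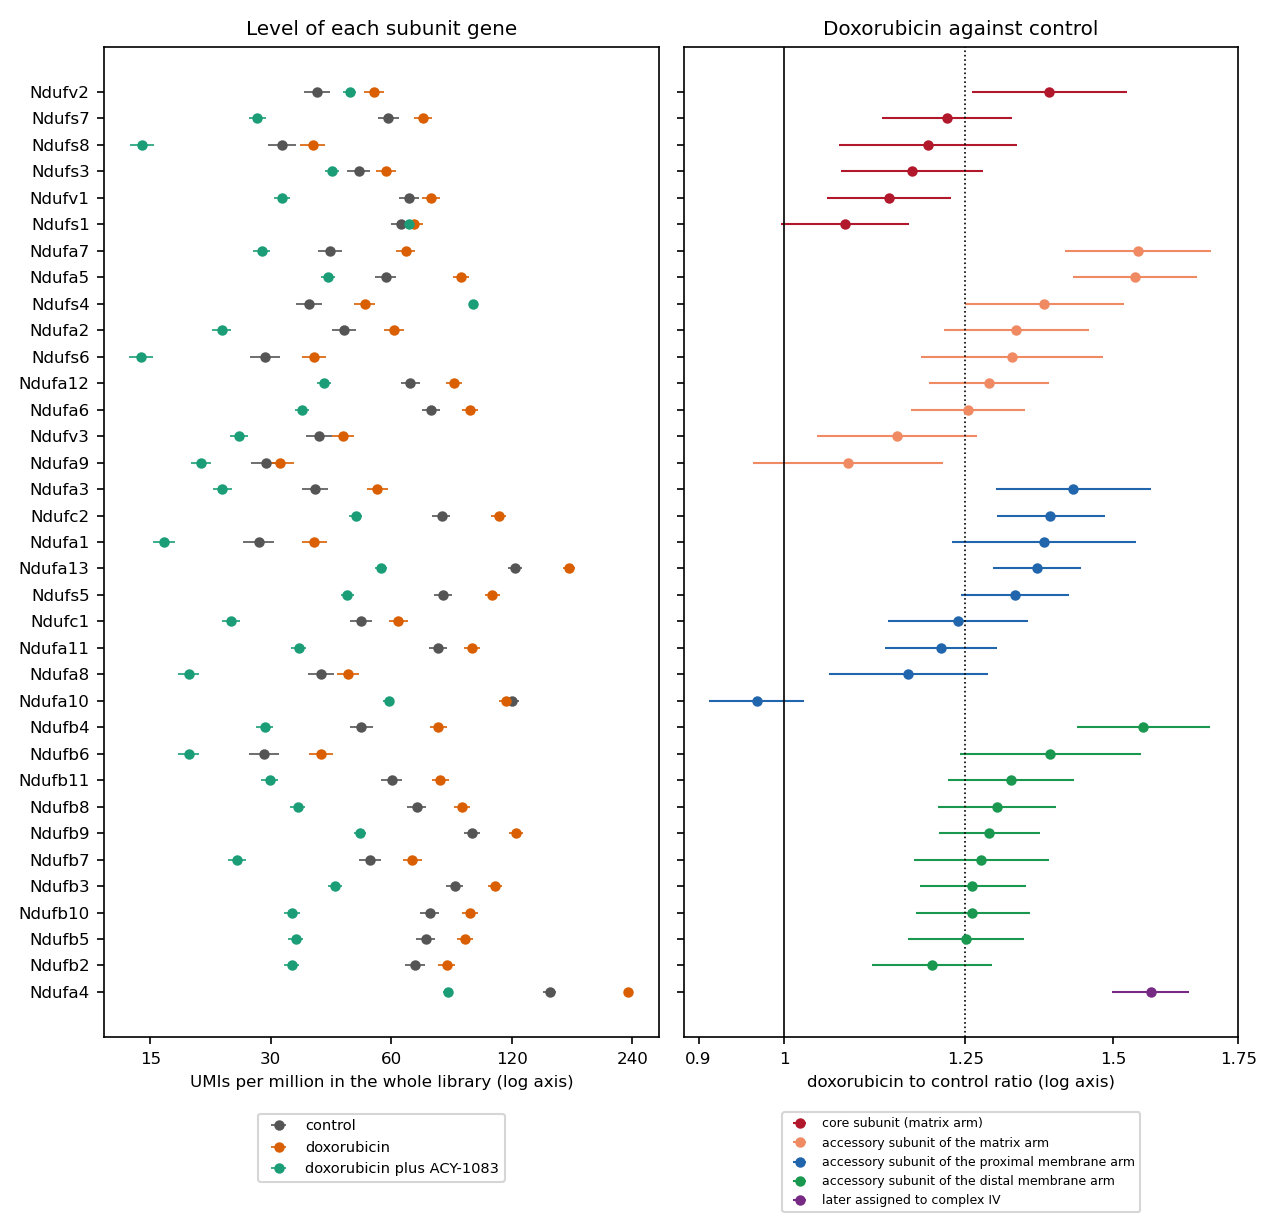
Left, level of each of the 35 genes in the 3 whole libraries (CPM, log axis); right, doxorubicin to control ratio (log axis), both with 95% counting intervals; genes are grouped by role and ordered by ratio, and the dotted line marks a ratio 25% above 1. Every gene except Ndufa10 has its doxorubicin point to the right of its control point, and 32 intervals lie wholly above 1.

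Each gene is given below with its level in control, doxorubicin and doxorubicin plus ACY-1083, in that order, followed by the doxorubicin to control ratio. Among the core subunits, 6 of 6 had a ratio above 1 and 1 of 6 was at least 25% higher, with a ratio of the sums of 1.18 (1.14 to 1.23). Ndufv2, which binds an iron-sulfur cluster at the NADH end of the matrix arm, had 39.2, 54.3 and 47.3 CPM (712, 1101 and 2813 UMIs), a ratio of 1.39 (1.26 to 1.52). Ndufv1, its partner that carries the flavin and the NADH site, had 66.3, 75.5 and 32.0 CPM, a ratio of 1.14 (1.05 to 1.23). Both were highest in doxorubicin, and their order between control and the third library was opposite. Ndufs7, which holds the last iron-sulfur cluster before ubiquinone, had 58.9, 72.0 and 27.8 CPM, a ratio of 1.22 (1.13 to 1.32). Ndufs8, which carries the pair of clusters ahead of it, had 32.0, 38.2 and 14.3 CPM, a ratio of 1.19 (1.07 to 1.33). Ndufs3, a structural subunit of the ubiquinone-binding module, had 49.7, 58.1 and 42.7 CPM, a ratio of 1.17 (1.07 to 1.28). These 3 were lowest in the third library. Ndufs1, the largest subunit and the carrier of several iron-sulfur clusters, had 63.4, 68.4 and 66.3 CPM, nearly level across the libraries, with a ratio of 1.08 (0.996 to 1.17) whose interval includes 1. An antisense transcript, Ino80dos, overlaps Ndufs1 over 14695 bases, so its counts are uncertain if strand was not used.

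The accessory subunits of the matrix arm, which surround the core, had a ratio of the sums of 1.33 (1.29 to 1.37). Here 9 of 9 were above 1 and 7 of 9 were at least 25% higher. Ndufa7 and Ndufa5, both small subunits, had the highest ratios of the group. Ndufa7 had 42.2, 65.2 and 28.5 CPM (766, 1322 and 1694 UMIs), a ratio of 1.55 (1.41 to 1.69). Ndufa5 (GRCm38, chromosome 6, 24518666 to 24528013) had 58.0, 89.4 and 41.6 CPM, a ratio of 1.54 (1.43 to 1.66). Ndufs4, which joins late in assembly and stabilises the NADH module, had 37.3, 51.5 and 96.1 CPM, a ratio of 1.38 (1.2503 to 1.52). It was the only one of the 35 with its highest level in the third library. Ndufs6, a zinc-binding subunit needed late in assembly, had 29.1, 38.5 and 14.2 CPM, a ratio of 1.32 (1.18 to 1.48). Ndufa2, with a thioredoxin-like fold, had 45.7, 60.9 and 22.6 CPM, a ratio of 1.33 (1.22 to 1.46). Ndufa12, a paralog of the assembly factor Ndufaf2, had 67.0, 86.2 and 40.8 CPM, a ratio of 1.29 (1.20 to 1.39). All 3 were highest in doxorubicin and lowest in the third library, as was Ndufa6, an LYR-motif protein that binds the mitochondrial acyl carrier protein. Ndufa6 had 75.3, 94.5 and 35.9 CPM, a ratio of 1.254 (1.17 to 1.34). Ndufv3, a small subunit of the NADH module, had 39.6, 45.5 and 25.0 CPM, a ratio of 1.15 (1.04 to 1.27). Ndufa9, related to short-chain dehydrogenases, had 29.2, 31.6 and 20.1 CPM, a ratio of 1.08 (0.963 to 1.22). The interval of Ndufa9 includes 1, and 2801 of its bases lie opposite the antisense gene 1700018A23Rik.

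The accessory subunits of the proximal membrane arm, which join the membrane arm to the matrix arm, had a ratio of the sums of 1.252 (1.22 to 1.28), with 8 of 9 above 1 and 5 of 9 at least 25% higher. Ndufa3, a small membrane subunit, had 38.8, 55.4 and 22.7 CPM, a ratio of 1.43 (1.30 to 1.57). Ndufa1, another, encoded on the X chromosome, had 28.0, 38.5 and 16.3 CPM, a ratio of 1.38 (1.23 to 1.54). The Ndufc subunits also sit in the membrane near the joint of the arms. Ndufc2 had 80.1, 111 and 48.9 CPM, a ratio of 1.39 (1.30 to 1.48), and Ndufc1 had 50.4, 62.4 and 23.9 CPM, a ratio of 1.24 (1.14 to 1.35). Ndufs5 had 80.7, 107 and 46.6 CPM, a ratio of 1.33 (1.24 to 1.42). Like Ndufa8, it is a cysteine-rich protein of the intermembrane space. Ndufa8 had 40.1, 46.7 and 18.7 CPM, a ratio of 1.17 (1.06 to 1.29), and Ndufa11, related to the mitochondrial import proteins Tim17 and Tim22, had 78.5, 95.3 and 35.2 CPM, a ratio of 1.21 (1.13 to 1.30). Ndufa13, also known as GRIM-19, had 122, 167 and 56.6 CPM (2217, 3379 and 3366 UMIs), a ratio of 1.37 (1.29 to 1.44). Yjefn3 overlaps the whole of Ndufa13 on the same strand (8379 bases), so reads of the overlap could be lost or split. Ndufa10, a subunit with a fold like that of nucleoside kinases (GRCm38, chromosome 1, 92439010 to 92473860), was the exception. It had 120, 116 and 59.1 CPM (2178, 2350 and 3518 UMIs), a ratio of 0.967 (0.912 to 1.03), so control and doxorubicin did not differ beyond counting error for this gene.

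The accessory subunits of the distal membrane arm, at the proton-pumping end, had a ratio of the sums of 1.30 (1.27 to 1.33), with 10 of 10 above 1, 9 of 10 at least 25% higher and 10 of 10 intervals above 1. Ndufb4 (chromosome 16, 37647170 to 37654453) led with 50.5, 78.6 and 28.9 CPM (917, 1593 and 1723 UMIs), a ratio of 1.56 (1.43 to 1.69). The other 9 lay between 1.20 and 1.39. Ndufb6 had 28.9, 40.1 and 18.7 CPM and a ratio of 1.39 (1.24 to 1.55). Ndufb11, encoded on the X chromosome, had 60.1, 79.6 and 29.8 CPM and a ratio of 1.32 (1.22 to 1.43). Ndufb8, a membrane subunit often used as a marker of assembled complex I, had 69.3, 90.1 and 35.03 CPM and a ratio of 1.30 (1.21 to 1.40). Ndufb9 is another LYR-motif protein, while Ndufb7 and Ndufb10 are cysteine-rich proteins facing the intermembrane space. Ndufb9 had 95.3, 123 and 50.1 CPM and a ratio of 1.29 (1.21 to 1.37), Ndufb7 had 53.1, 67.7 and 24.7 CPM and a ratio of 1.28 (1.17 to 1.39), and Ndufb10 had 74.7, 94.3 and 33.9 CPM and a ratio of 1.26 (1.18 to 1.35). The remaining 3, Ndufb3, Ndufb5 and Ndufb2, are small membrane subunits. Ndufb3 had 86.4, 109 and 43.4 CPM and a ratio of 1.26 (1.18 to 1.35), Ndufb5 had 73.1, 91.5 and 34.6 CPM and a ratio of 1.251 (1.17 to 1.34), and Ndufb2 had 68.7, 82.5 and 33.9 CPM and a ratio of 1.20 (1.11 to 1.29). In all 10 the level was highest in doxorubicin and lowest in the third library.

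Ndufa4, the subunit later assigned to complex IV (chromosome 6, 11900292 to 11907497), had 149, 235 and 83.2 CPM (2712, 4754 and 4950 UMIs). Its doxorubicin to control ratio, 1.57 (1.498 to 1.65), was the highest of the 35 genes.

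Other lists were compared over the same 2 libraries. Ndufab1, the acyl carrier protein, and Ndufb1-ps, which were not among the 35, had ratios of 1.2505 (1.16 to 1.35) and 1.60 (1.45 to 1.76). Nuclear-encoded genes of complexes II to V were above 1 in 37 of 37, with 21 of 37 at least 25% higher, a median log2 ratio of 0.36 and a ratio of the sums of 1.26 (1.252 to 1.28). Among them Cox6c, a complex IV subunit, had a ratio of 1.46 (1.40 to 1.53) and Uqcrb, of complex III, 1.49 (1.39 to 1.61). Cytosolic ribosomal protein genes were above 1 in 54 of 55 and at least 25% higher in 23 of 55, with a median log2 ratio of 0.30 and a ratio of the sums of 1.22 (1.21 to 1.23), and Rpl39 and Rpl38 had ratios of 1.57 (1.44 to 1.71) and 1.44 (1.36 to 1.53).

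Assembly factors and regulators lay on both sides of 1. Assembly factors, which are not part of the finished enzyme, were above 1 in 7 of 17 measured (of 19 listed), with a median log2 ratio of -0.05 and a ratio of the sums of 0.934 (0.913 to 0.956). The lowest intervals were those of Foxred1, 0.790 (0.726 to 0.860), and Tmem186, 0.729 (0.609 to 0.872). Regulators of respiratory chain genes were above 1 in 3 of 9, with a median of -0.02. Ppargc1b, a coactivator of mitochondrial genes, had 0.802 (0.717 to 0.896), while Nrf1 and Yy1 had 1.04 (0.925 to 1.18) and 1.04 (0.960 to 1.14). With TMM scaling (an edgeR normalization on trimmed mean ratios) these medians became 0.00 and 0.03 and the counts 9 of 17 and 6 of 9, so no direction is given for either list. The mitochondrially encoded subunits of complex I were above 1 in 4 of 4 measured (of 7 listed), with a ratio of the sums of 1.17 (1.10 to 1.24). mt-Nd5 and mt-Nd1 had 1.30 (1.07 to 1.58) and 1.16 (1.02 to 1.32).

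**Figure D2:**
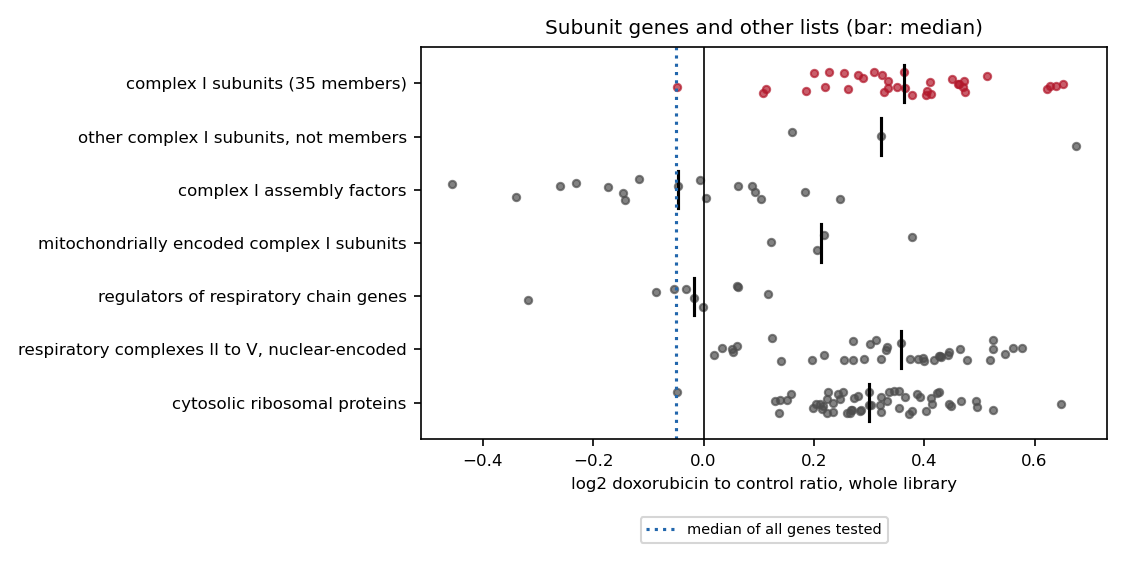
Log2 doxorubicin to control ratio in the whole library for each measured gene (a point; vertical scatter has no meaning), by list, with the list median as a bar and the median of all genes as a dotted line. The 35 complex I genes, the genes of complexes II to V and the ribosomal protein genes lie to the right of 0 apart from Ndufa10 and Rpl6, while assembly factors and regulators lie on both sides.

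Other measures moved with these ratios. Ttr, a choroid plexus transcript found at lower levels in every class, was at 1318 CPM in control and 2950 CPM in doxorubicin, and mitochondrially encoded genes took 0.0404% and 0.0509% of the UMIs. Counted per nucleus, Ttr was nearly level across the 10 classes other than choroid plexus, from 1935 to 2277 UMIs per 1000 nuclei in control and from 4426 to 4822 in doxorubicin, against 20551 and 27413 in the choroid plexus class. One unnamed cluster, picked because its leading genes held the most ribosomal and respiratory chain genes (the 35 included) together with Ttr and Fth1, held 188 control and 550 doxorubicin nuclei, and in it the 35 genes were at 6068 and 5420 CPM, against 2126 and 2727 CPM in all other nuclei. Its 10 leading genes were 2900097C17Rik, Ttr, Fth1, Ncdn, Chchd2, Fau, Rpl11, Pcp4, Ndufb8 and Enpp2. The ratio without this cluster was 1.28, and within it 0.893 (0.841 to 0.948). The part of free or cytoplasmic RNA in the higher level of the complex I genes was not tested.

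Gene structure was a further feature that the choice of genes did not use. Most complex I genes are compact: 27 of 35 had at most 10000 intronic bases in GENCODE vM21. Of all 10220 genes with a mean of at least 10 CPM, 3108 were of that size. These 27 had a median log2 ratio of 0.37, and all were above 1, against -0.02 and 44.6% for all genes of that size. The 8 with longer introns had a median of 0.29, with 7 above 1, against -0.06 and 31.4% for all longer genes. Across the 35 genes the doxorubicin to control ratio had a Spearman correlation of -0.10 with intronic and -0.44 with exonic bases. These correlations are across genes of the same libraries and carry no test.

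Doxorubicin against control in each class of nuclei. The ratio of the sums was above 1, with an interval above 1, in all 11 classes, and the median log2 ratio of the 35 genes was above 0 in all 11. Of 385 gene and class ratios, 321 were above 1, against 44.7% of the 111778 ratios of all genes in these classes. The interval lay above 1 for 124 (3.33% over all genes) and below 1 for 1 (5.1%). Classes share the library, so they do not repeat the comparison.

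Oligodendrocytes, the myelinating glia, had the highest ratio of the sums in CPM, but not per nucleus. Their sum was 2804 CPM (2701 to 2909) in control and 4141 CPM (4021 to 4265) in doxorubicin, a ratio of 1.48 (1.41 to 1.55). All 35 genes were above 1 there, where 45.9% of all genes were, and 26 of 35 were at least 25% higher (18.5%). Ndufa5 had 64.7 CPM (65 UMIs) and 148 CPM (159 UMIs), a ratio of 2.27 (1.70 to 3.10), and Ndufa4 had 209 and 399 CPM, a ratio of 1.91 (1.61 to 2.26). Mean UMIs per nucleus were lower in doxorubicin, 1030 against 1148, and counted per 1000 nuclei the ratio of the summed genes was 1.33, below oligodendrocyte precursor cells (1.40), fibroblast-like cells (1.36) and astrocytes (1.35). Among nuclei with at least 600 genes, the ratio of the sums in CPM was 1.33. That filter leaves out 638 of 875 control and 821 of 1044 doxorubicin nuclei.

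Among excitatory neurons the ratios were closer together. Dentate gyrus granule neurons, the largest class, had 2282 and 2884 CPM, a ratio of 1.26 (1.23 to 1.30). There 33 of 35 genes were above 1 (38.4% of all genes) and 18 of 35 at least 25% higher (5.62%). Ndufb4 had a ratio of 1.58 (1.33 to 1.90) and Ndufa4 1.45 (1.31 to 1.60). CA1 pyramidal neurons had 1784 and 2198 CPM, a ratio of 1.23 (1.19 to 1.28), with 32 of 35 above 1 (38.5%) and 18 of 35 at least 25% higher (6.93%). In CA1, Ndufs4 went from 22.2 to 40.6 CPM, a ratio of 1.82 (1.31 to 2.57), and Ndufa3 had 1.68 (1.26 to 2.28). Ndufa10 had 125 and 101 CPM from 298 UMIs in each library, a ratio of 0.807 (0.685 to 0.950), and this was the only interval below 1 among the 385.

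CA2/CA3 pyramidal neurons had 1368 and 1608 CPM, a ratio of 1.17 (1.12 to 1.24), with 25 of 35 above 1 (40.5%) and 13 of 35 at least 25% higher (9.13%). Ndufc2 had 1.87 (1.39 to 2.56) and Ndufa4 1.54 (1.24 to 1.91) there. The subicular or cortical class of excitatory neurons was at 1980 and 2511 CPM, a ratio of 1.27 (1.22 to 1.31), with 32 of 35 above 1 (42.0%) and 16 of 35 at least 25% higher (7.53%). Ndufs6 went from 16.8 to 37.1 CPM, a ratio of 2.19 (1.56 to 3.15), and Ndufa7 had 1.70 (1.32 to 2.20). GABAergic neurons had 2066 and 2560 CPM, a ratio of 1.24 (1.18 to 1.30), with 33 of 35 above 1 (51.0%) and 16 of 35 at least 25% higher (13.8%). Ndufa4 had 1.68 (1.40 to 2.03) and Ndufb10 1.66 (1.26 to 2.21).

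Of the other glia, astrocytes had 3855 and 4660 CPM, a ratio of 1.21 (1.16 to 1.26), with 29 of 35 above 1 (45.5%) and 14 of 35 at least 25% higher against a background of 16.6% of all genes. Ndufb4 had 1.72 (1.31 to 2.31) and Ndufa4 1.5 (1.29 to 1.75). Microglia had 1970 and 2492 CPM, a ratio of 1.26 (1.17 to 1.37), with 28 of 35 above 1 (47.0%) and 19 of 35 at least 25% higher (21.0%). Ndufa4 had 1.71 (1.27 to 2.36) and Ndufa5 2.09 (1.23 to 3.79) from 20 and 46 UMIs. Oligodendrocyte precursor cells had 3196 and 3931 CPM, a ratio of 1.23 (1.12 to 1.35), with 30 of 35 above 1 (46.1%) and 19 of 35 at least 25% higher (26.4%), and only Ndufv2, at 2.33 (1.01 to 6.74) from 7 and 23 UMIs, had an interval above 1.

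The 2 smallest classes were the least precise. Fibroblast-like cells had 3542 and 4908 CPM, a ratio of 1.39 (1.252 to 1.53), with 26 of 35 above 1 (49.6%) and 20 of 35 at least 25% higher (31.7%). Ndufc1 had 3.52 (1.60 to 10.0) from 7 and 30 UMIs and Ndufa12 2.82 (1.45 to 6.32) from 11 and 37. Choroid plexus epithelium had 3866 and 4430 CPM, a ratio of 1.15 (1.02 to 1.28). Its 18 of 35 above 1 (45.8%) and 12 of 35 at least 25% higher (30.5%) are near the background, so the counts are no result about these genes there. Ndufc1 had 2.37 (1.15 to 5.86) and Ndufv2 2.35 (1.04 to 6.76), with 7 to 32 UMIs each.

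**Figure D3:**
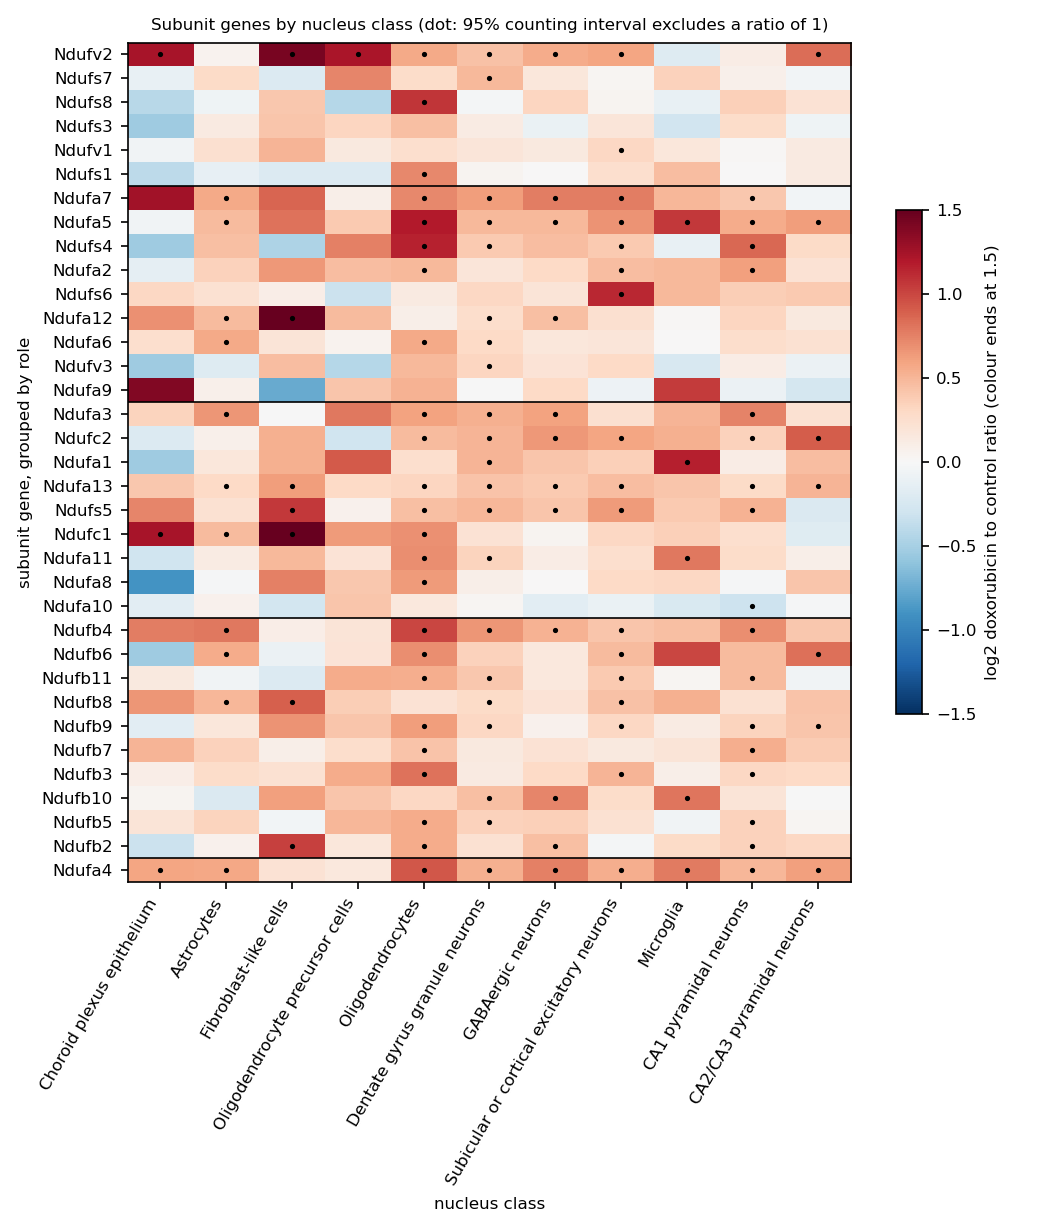
Log2 doxorubicin to control ratio of each of the 35 genes (rows, grouped by role) in each of 11 classes of nuclei (columns, in order of their summed level in control); red is higher in doxorubicin, and a dot marks a 95% counting interval that excludes a ratio of 1. The oligodendrocyte column is red for all 35 genes, Ndufa4 is red in all 11 classes, and Ndufa10 has the only dot on blue, in CA1.

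Followed across the classes, 8 of the 35 genes had a ratio above 1 in all 11: Ndufa4, Ndufa6, Ndufa12, Ndufa13, Ndufb3, Ndufb4, Ndufb7 and Ndufb8. Ndufa4 had an interval above 1 in 9 classes, and Ndufa5, Ndufa13 and Ndufv2 in 8 each. How many of all genes reach such counts of classes was not computed, and the classes share the library. These counts therefore only describe the genes. Ndufa4 ranged in control from 71.1 CPM in CA2/CA3 to 345 CPM in fibroblast-like cells and in doxorubicin from 109 to 428 CPM, and its lowest ratio was 1.11 (0.800 to 1.56), in oligodendrocyte precursor cells. Ndufa10 was above 1 in 4 of 11 classes, and no class gave it an interval above 1. Neither did any class for Ndufa9 or Ndufs3. By role, the median over the 11 class medians was 0.15 (log2 ratio) for the core subunits, 0.39 for the matrix-arm accessory subunits, 0.40 for the proximal and 0.33 for the distal membrane arm. The core median was above 0 in 10 of 11 classes. That of the assembly factors was above 0 in 4 of 11, with a median of -0.04.

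Beside these class values, Ttr was higher in doxorubicin in all 11 classes, from 1.30-fold in choroid plexus to 2.54-fold in oligodendrocytes. The summed UMIs of markers of other cell types had ratios of 1.06 (microglia) to 1.77 (GABAergic neurons) with Ttr and 0.902 to 1.18 without it. Of the markers of other types measured in a class, 17 of 22 were higher in GABAergic neurons and 13 of 18 in CA2/CA3. Subicular or cortical neurons had 16 of 23 higher, CA1 13 of 22 and dentate gyrus 14 of 25. Oligodendrocytes had 35 of 62, fibroblast-like cells 48 of 87 and choroid plexus 36 of 73. Astrocytes had 30 of 72, microglia 30 of 69 and oligodendrocyte precursor cells 24 of 63. The share of all genes above 1 in each class is given above. In a class, 0 to 15 such markers were at 0 in both libraries. Mitochondrially encoded UMIs had ratios of 0.993 (microglia) to 1.49 (GABAergic neurons). Their part in the class ratios was not tested.

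Levels of the complex I genes across classes. Within each library the classes could be ordered by the summed level of the 35 genes. In control the order ran from choroid plexus epithelium (3866 CPM, 3534 to 4222) and astrocytes (3855 CPM) through fibroblast-like cells (3542), oligodendrocyte precursor cells (3196), oligodendrocytes (2804), dentate gyrus granule neurons (2282), GABAergic neurons (2066), subicular or cortical neurons (1980), microglia (1970) and CA1 (1784) to CA2/CA3 pyramidal neurons (1368 CPM, 1318 to 1420). Neighbours from choroid plexus down to oligodendrocyte precursor cells did not differ beyond counting error, nor did GABAergic from subicular or cortical neurons, nor these from microglia. In doxorubicin the same classes were at the bottom, and the first 5 places, from fibroblast-like cells (4908 CPM) to oligodendrocyte precursor cells (3931), did not differ between neighbours. In the third library oligodendrocytes came first (3078 CPM, 3007 to 3150) and CA2/CA3 again last (855 CPM, 837 to 875). CA2/CA3 had the lowest level of 28, 34 and 27 of the 35 genes in control, doxorubicin and the third library. The share of all genes with their lowest level in CA2/CA3 was not computed, so these counts are no trait of the complex I genes.

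**Figure D4:**
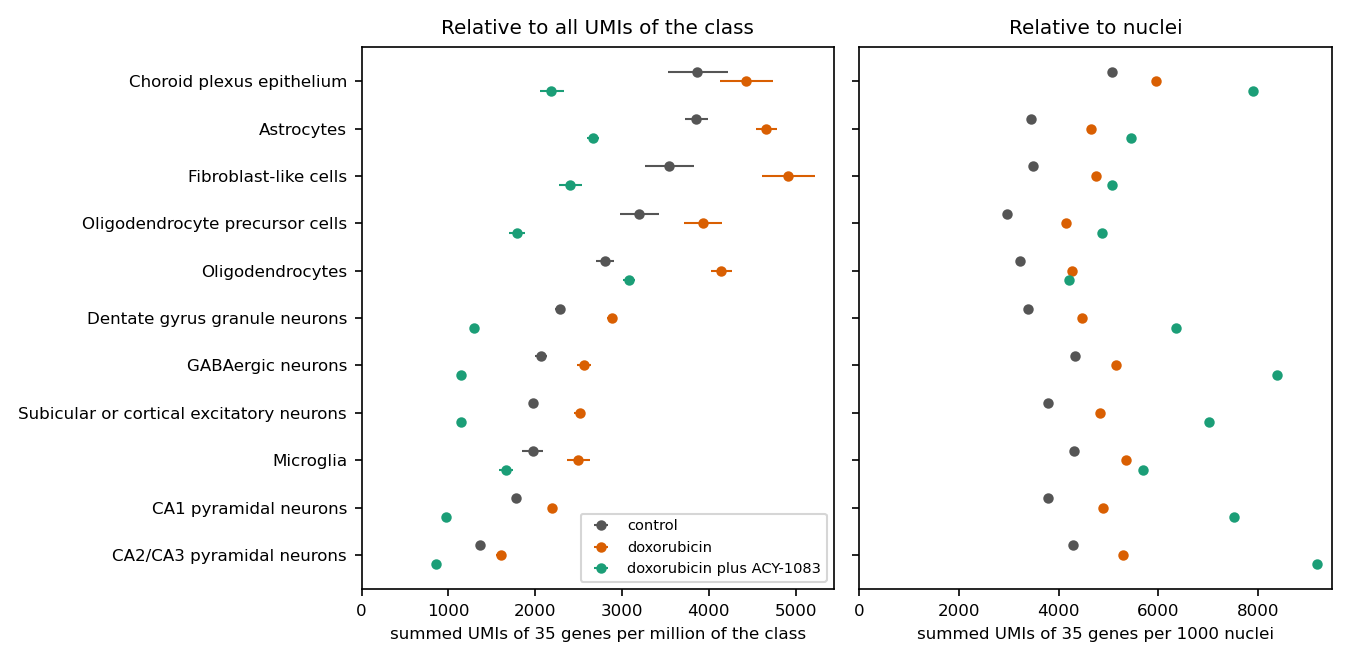
Summed level of the 35 genes in each class and library, left in CPM with 95% counting intervals, right as UMIs per 1000 nuclei. On the left CA2/CA3 neurons are lowest in each library; on the right the classes of the control library lie between 2961 and 5061 and CA2/CA3 neurons are no longer lowest.

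This order depends on the denominator. Counted per 1000 nuclei, the classes of the control library lay between 2961 UMIs (oligodendrocyte precursor cells) and 5061 (choroid plexus), a 1.71-fold range, against 2.83-fold for CPM, while mean UMIs per nucleus ranged from 894 in astrocytes to 3129 in CA2/CA3 neurons. CA2/CA3 neurons then had 4281 UMIs of the 35 genes per 1000 nuclei, more than astrocytes (3446). Only 1 of 11 classes in control, and 0 of 11 in doxorubicin and in the third library, kept its place. With every nucleus thinned to 1000 UMIs, which leaves out 25 of 661 CA2/CA3 but 757 of 990 astrocyte nuclei in control, 7, 4 and 6 of 11 classes kept theirs.

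Doxorubicin plus ACY-1083 against doxorubicin. The third library had 1299 CPM (1290 to 1309, 77333 UMIs) of the 35 genes, a ratio of 0.461 (0.456 to 0.466) to doxorubicin. The ratio was above 1 for 1 of 35 genes, where 40.9% of 10605 genes had one, and the median log2 ratio was -1.29 against -0.30 for all genes. TMM scaling moved every log2 ratio by 0.32 and totals without mitochondrial genes and Malat1 by -0.27, so only the difference between the 2 medians, -1.0, does not depend on the scaling. Counted per 1000 nuclei the third library was higher than doxorubicin, with 3788 UMIs of the 35 genes in control, 4906 in doxorubicin and 6528 in the third library. This comparison shares the doxorubicin library with the one above.

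The ratios followed intron length. The 27 genes with at most 10000 intronic bases had a median log2 ratio of -1.38, against -1.25 for all genes of that size, and the 8 longer ones -0.81, against 0.09. Across the 35 genes the Spearman correlation of the ratio with intronic bases was 0.65, and 0.80 across 10219 genes of the same libraries. Ndufs4, the gene with the longest introns of the 35 (97756 bases, chromosome 13, 114287795 to 114388258), was the only one above 1 (TMM scaling gave 3). It had 678 UMIs (37.3 CPM) in control, 1043 (51.5 CPM) in doxorubicin and 5720 (96.1 CPM) in the third library, a ratio of 1.87 (1.75 to 2.0) to doxorubicin. Its level in the third library was above both others. Ndufs1 (25152 intronic bases) and Ndufv2 (20775) came next, with 0.970 (0.912 to 1.03) and 0.870 (0.811 to 0.933). With TMM scaling these 2 were above 1 as well, at 1.21 and 1.08. The lowest ratios were those of Ndufa13, 0.339 (0.323 to 0.356), Ndufa4, 0.354 (0.341 to 0.369), and Ndufb10, 0.359 (0.337 to 0.383), with 7128, 5825 and 1202 intronic bases.

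**Figure D5:**
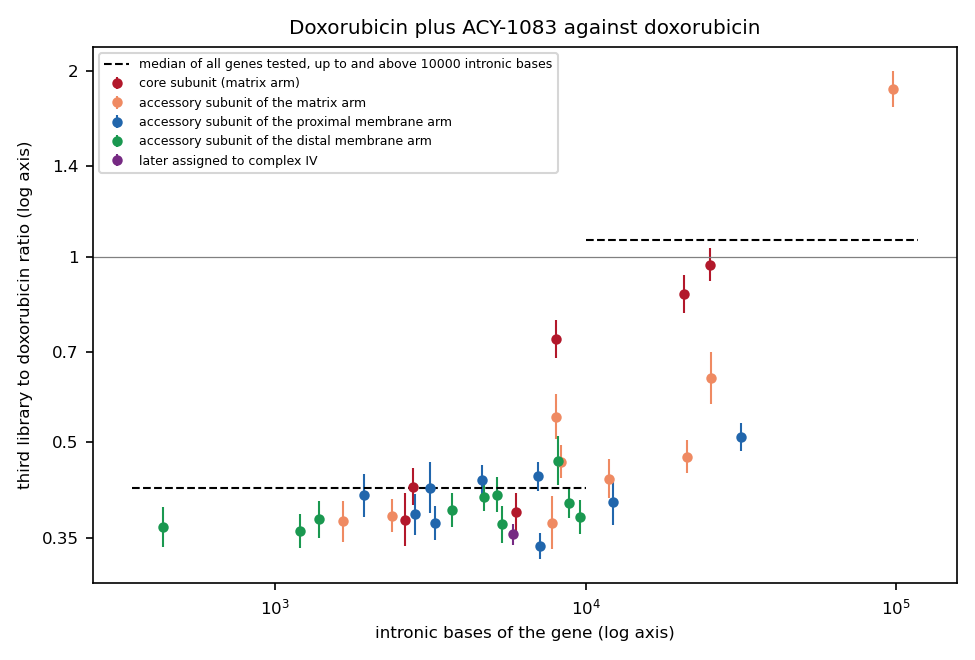
Ratio of the doxorubicin plus ACY-1083 library to the doxorubicin library (log axis) against the intronic bases of each of the 35 genes (log axis), with 95% counting intervals and colours by role; dashed lines give the median of all genes up to and above 10000 intronic bases. Ndufs4 lies alone at the upper right at 1.87, and most genes with short introns lie near 0.4.

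By class the ratio of the sums to doxorubicin ran from 0.444 (0.430 to 0.458) in CA1 to 0.743 (0.716 to 0.772) in oligodendrocytes, and 1 to 4 of 35 genes were above 1 in a class. Of all genes, 41.4% were above 1 in astrocytes, 41.1% in CA1, 44.2% in CA2/CA3, 43.8% in choroid plexus, 39.7% in dentate gyrus, 46.8% in fibroblast-like cells, 39.7% in GABAergic neurons, 46.3% in microglia, 39.7% in oligodendrocyte precursor cells, 41.3% in oligodendrocytes and 39.8% in subicular or cortical neurons. Ndufs4 was above 1 in all 11 classes, from 1.44 (1.10 to 1.92) in oligodendrocytes to 4.91 (2.44 to 13.4) in choroid plexus. Microglia (0.669, 0.622 to 0.718) and astrocytes (0.571, 0.550 to 0.594) were next to oligodendrocytes. With at least 600 genes per nucleus the oligodendrocyte ratio became 1.24, and with nuclei thinned to 1000 UMIs it was 1.06 and that of microglia 1.03. The filter on 600 genes leaves out 821 of 1044 oligodendrocytes in doxorubicin and 190 of 1692 in the third library, and thinning leaves out 835 and 459. No direction is therefore given for these 2 classes. Per 1000 nuclei the ratio to doxorubicin ran from 0.984 in oligodendrocytes to 1.74 in CA2/CA3 neurons. It was above 1 in every class except oligodendrocytes, so a lower level in the remaining classes holds for CPM and not per nucleus. The third library was clustered and named by itself, so a class may not hold the same cells in both. The subicular or cortical class held 1386 nuclei in doxorubicin and 410 in the third library. There, an unnamed cluster of 398 nuclei shared the leading genes Tshz2, Sgcz and Vwc2l with that class in the other libraries.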

How the data were processed

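Single nuclei of 3 hippocampal pools were profiled with 10x Genomics 3' chemistry version 3, per the labels' protocols. The values the authors deposited are unnormalized UMI counts for every gene in every barcode. The software was Cell Ranger 4.0.0 for control and doxorubicin and 5.0.0 for doxorubicin plus ACY-1083, per the file headers. Version 6.0.0 with build mm10 stands in the submitters' processing notes. The use of intronic reads and of strand is not stated there. Before filtering there were 10909, 12221 and 12192 barcodes, whose totals were 19175447, 21458785 and 62151258 UMIs.

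Nuclei with at least 300 genes and under 5% mitochondrial UMIs were kept. The automatic threshold of Scrublet in scanpy 1.11.5 marked 3, 1 and 1 doublets, so nuclei with a score above 0.25 were removed (452, 573 and 344), a threshold chosen after seeing the scores. The first 2 libraries were clustered together and the third by itself (2000 variable genes, 30 principal components, 15 neighbours, Leiden resolution 1), giving 43 clusters, of which 9 stayed unnamed. Clusters were named from marker lists by the mean log2 fold of their markers (at least 1 with a marker among the 10 leading genes, or at least 0.6 with 2 among the 50 leading genes and a gap of 0.5 to the next class), a rule revised after seeing the clusters. Classes needed 50 nuclei and 100000 UMIs in every library.

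UMIs were summed per class and library and divided by their total. Ratios use 0.5 added counts, with exact Clopper-Pearson intervals conditional on the sum. CPM intervals are exact Poisson. The interval code was tested on simulated data. Calls needed a mean of at least 10 CPM and a ratio above 1, or at least 25% higher or 20% lower. Gene structure came from GENCODE vM21 (99.85% of genes matched), promoters from RefSeq (GRCm38.p6). In 31 of 32 promoter windows a stretch of bases shortly after the start was found in a GENCODE transcript of the gene. The start base itself was not checked. Every gene of the list is given for the whole library; in a class, the 2 genes whose interval lies farthest above 1 and the 1 farthest below are named; for the third library, the 3 highest and 3 lowest; of every other list, the 2 farthest from 1. Genes named beyond that rule (Ndufab1, Ndufb1-ps, Nrf1, Yy1, Rpl6 and genes followed across classes) were chosen after seeing values. The genes and lists were chosen with earlier results of these data known. Alternatives were TMM factors (edgeR 4.0.16), other totals, doublets kept, Leiden resolution 0.5, at least 600 genes, 1000 UMIs per nucleus, other filters and an offset of 5 counts.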

Additional observations from a re-analysis of the deposited data

How the results depend on the processing

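The summed doxorubicin to control ratio stayed above 1 in the whole library and in each class under every alternative that gave a value. No paired analysis was possible because each group has 1 library. In the whole library it was 1.34 with TMM scaling, 1.32 with totals without mitochondrial genes and Malat1, and 1.27 with at least 600 genes per nucleus, and the number of genes above 1 was 34 of 35 in each of the 8 alternatives run, though not the same 34 when thinned. The median log2 ratio was 0.41, 0.39 and, without the unnamed cluster of the first 2 libraries and its counterpart in the other, 0.34. With TMM scaling CA1 had 1.30 (median 0.41) and dentate gyrus granule neurons 1.31 (median 0.38). The latter had 1.30 (median 0.37) with totals without mitochondrial genes and Malat1 and 1.33 (median 0.41) when thinned to 1000 UMIs. With at least 600 genes, astrocytes had 1.15 (median 0.18), oligodendrocytes 1.33 (median 0.41) and microglia a median of 0.21. Thinning gave medians of 0.50 in oligodendrocyte precursor cells and 0.44 in oligodendrocytes. Per 1000 nuclei, astrocytes had 1.35, CA1 1.29, dentate gyrus 1.32, oligodendrocyte precursor cells 1.40 and oligodendrocytes 1.33. A minimum of 50 UMIs left fewer genes: 6 were above 1 in choroid plexus (median 0.33), 11 in fibroblast-like cells (median 0.62) and 17 in oligodendrocyte precursor cells. The share of all genes above 1 under that filter is not given beside them, so these counts are no result about the genes. An offset of 5 counts gave a median of 0.29 in fibroblast-like cells. Thinning moved single genes to 1.41 (Ndufb10), 1.54 (Ndufv2), 0.975 (Ndufs1) and 1.005 (Ndufa10, otherwise below 1).

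For doxorubicin plus ACY-1083 against doxorubicin, the cause of the spread between settings was not tested. The whole-library ratio was 0.574 with TMM scaling, 0.382 with totals without mitochondrial genes and Malat1, 0.501 with at least 600 genes and 0.629 thinned. TMM scaling gave 0.683 in astrocytes, 0.588 in CA1, 0.667 in CA2/CA3, 0.604 in choroid plexus, 0.61 in dentate gyrus, 0.554 in fibroblast-like cells, 0.61 in GABAergic neurons, 0.764 in microglia, 0.605 in oligodendrocyte precursor cells, 0.898 in oligodendrocytes and 0.58 in subicular or cortical neurons. The other totals gave, in the same order, 0.502, 0.355, 0.394, 0.448, 0.367, 0.423, 0.381, 0.561, 0.392, 0.64 and 0.381. At least 600 genes gave 0.672 in astrocytes, 0.46 in dentate gyrus, 0.609 in fibroblast-like cells, 0.797 in microglia, 0.55 in oligodendrocyte precursor cells and 1.24 in oligodendrocytes. Thinning gave 0.713 in astrocytes, 0.547 in choroid plexus, 0.475 in dentate gyrus, 0.77 in fibroblast-like cells, 0.476 in GABAergic neurons, 1.03 in microglia, 0.618 in oligodendrocyte precursor cells and 1.06 in oligodendrocytes. Doublets kept gave 0.58 in fibroblast-like cells, 0.59 in microglia and 0.777 in oligodendrocytes.

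The number of 11 classes that kept their place by summed level was 1, 0 and 0 per 1000 nuclei (control, doxorubicin, doxorubicin plus ACY-1083), and 7, 4 and 6 when thinned. At Leiden resolution 0.5 CA1 and CA2/CA3 were not named in the first 2 libraries, and with doublets kept CA2/CA3 was not, so these gave no value. The ratio per 1000 nuclei and the removal of the unnamed cluster were added after seeing the data. Depth limits single genes in the smaller classes, where a gene could rest on as few as 2 UMIs.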
